A study of Rattus norvegicus with 20 samples.

Results

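The neurexin, neuroligin and LRRTM adhesion genes were followed in the hippocampus of young female rats, first between wild-type and transgenic-AD rats and then between untreated and treated transgenic-AD rats. The group was chosen by name, as the rows listed under Nrxn2, Nrxn3, Nlgn1, Nlgn2, Nlgn3 and Lrrtm1 to Lrrtm4. All 9 were found among the 17168 genes of each table, with Lrrtm1 listed as LRRTM1. They comprise 2 neurexins, 3 neuroligins and 4 LRRTM genes.

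The series holds 20 hippocampal poly(A) mRNA libraries, each from a different 4-month female rat. The genotype tables hold 5 WTNT rats (wild-type, normal chow) and 5 TGNT rats (TgF344-AD, normal chow). The treatment tables hold 4 further TGNT rats on normal chow and 6 TGTR rats, which were TgF344-AD rats given chow with diazoxide (DZ, 10 mg/kg/day) and dibenzoylmethane (DIB, 200 mg/kg/day) from day 52 of age. TgF344-AD rats carry human APPsw and PS1-ΔE9, both under the prion promoter, and there was no treated wild-type group among the libraries. The transgenes are thus shared by both arms of the treatment comparison. The first comparison asks for early differences of the transgenic-AD hippocampus and the second for those with DZ/DIB. No rat belonged to both comparisons, and each comparison was made within its own table. The labels name the left hippocampus as the source, while the methods name the right. Per the methods, rats were tested in a radial arm maze at 4 months under food restriction. Some of them were then used for RNA sequencing.

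Neurexins are presynaptic membrane proteins that reach across the synaptic cleft. Neuroligins and LRRTM proteins are unrelated kinds of postsynaptic partner that bind them, and together these pairs align transmitter release sites with receptors and help to set whether a contact becomes excitatory or inhibitory. The family is widely expressed by hippocampal neurons and has long been studied in autism and in synapse loss.

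No member changed beyond the test in either comparison. The edgeR quasi-likelihood test over all genes called 0 of the 9 members at an adjusted p under 0.05 with a change of at least 1.5-fold. The same rule called 2 of 17168 genes (0.0116%) between TGNT and WTNT rats and 0 of 17168 (0%) between TGTR and TGNT rats. With DESeq2, limma-trend or edgeR's likelihood ratio test the count was also 0. Without adjustment, 1 of 9 members (11.1%) had a p under 0.05 between genotypes, against 3.23% of all genes, and 0 of 9 had one between treatments, against 4.91%. That 1 member was Lrrtm3, which was higher in TGNT rats, and 1.72% of all genes were higher at that p. The RPM ranges of the groups overlapped for every member in both comparisons, whereas the groups did not overlap for 0.652% of genes between genotypes and 1.45% between treatments, among genes whose counts averaged 10 or more.

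The precision of these nulls can be read from the intervals. All 18 fitted changes (9 members in 2 comparisons) had a 95% interval that lay inside 1.5-fold in either direction, or 0.58 on the log2 scale. These intervals are for single genes, without adjustment for the number of genes. The median log2 fold change of the members was 0.00 between genotypes, where that of all genes with 10 or more counts on average was 0.01, and -0.03 between treatments, where that of all genes was 0.00. The median size of the change, regardless of sign, was 0.11 and 0.07 for the members and 0.07 in both comparisons for all genes.

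**Figure D1:**
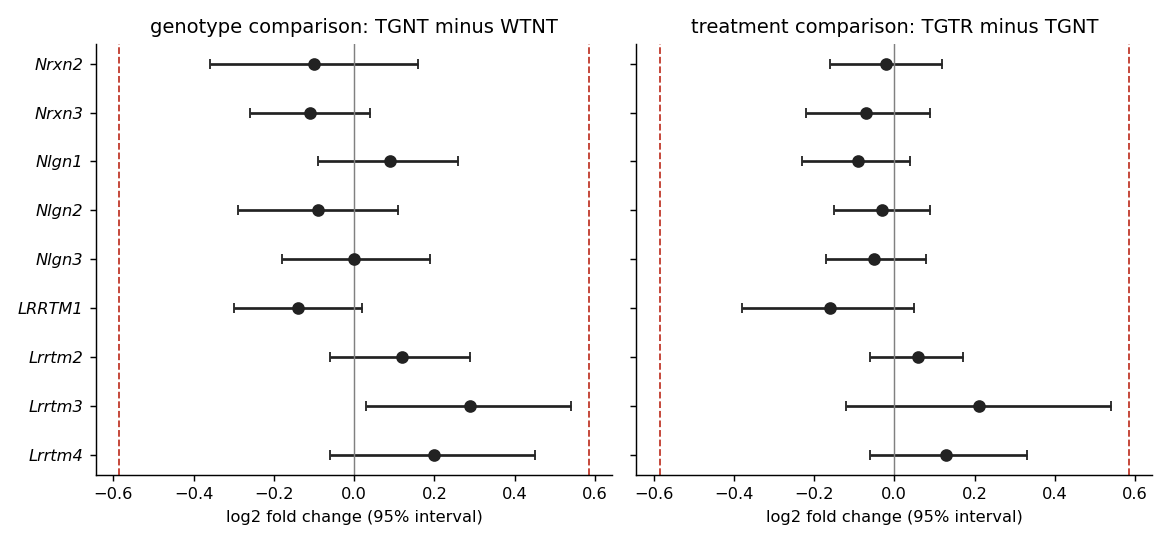
Fitted log2 fold changes of the 9 members (points) with their 95% intervals (bars), TGNT minus WTNT on the left and TGTR minus TGNT on the right; the dashed lines mark 1.5-fold. All 18 intervals lie between the dashed lines, and only that of Lrrtm3 between genotypes (0.03 to 0.54) does not cross 0.

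The libraries of the treatment tables were deeper at the median, with overlapping totals. Estimated counts summed to 5848458 to 9926088 per WTNT rat and 6610498 to 8117561 per TGNT rat in the genotype tables, and to 11151973 to 13481985 per TGNT rat and 9215039 to 14175594 per TGTR rat in the treatment tables. The members were well covered at these depths. Their coefficient of variation between rats of a group was 2.29% to 22.9% between genotypes and 2.69% to 27.8% between treatments, where counting alone would give 2.28% to 5.60% and 1.36% to 4.79%. App, which checks the genotype label because reads of the human transgene can be counted with it, was 1101 ± 47.5 RPM (SD, n = 5) in WTNT and 2187 ± 122 RPM (SD, n = 5) in TGNT rats, a log2 fold change of 1.00 (adjusted p = 2.45e-07, edgeR quasi-likelihood test). Genes from 12 lists of cell markers were measured as well. None of the markers found was at 0 in every rat, and the neuron, CA1, CA3 and dentate gyrus markers of a hippocampal sample were present. TGTR replicate 5 stood apart, with 2845 RPM summed over 6 choroid plexus genes, against 133 RPM in TGTR replicate 6 and 3.67 to 6.08 RPM in the other TGTR rats. Fold changes without TGTR replicate 5 are given for Nrxn2, Nrxn3, Nlgn2, Nlgn3, LRRTM1 and Lrrtm3. They are not given for Nlgn1, Lrrtm2 and Lrrtm4.

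RPM are normalised read numbers after TMM scaling. They are not corrected for transcript length, so levels are compared between rats and not between genes. In a piece of whole tissue, fewer cells of a type and less RNA per cell cannot be told apart.

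The neurexins were measured first. Nrxn2 encodes neurexin-2, a presynaptic receptor of the family. Its RPM in the 5 WTNT rats were 295, 236, 235, 254 and 320.2, and in the 5 TGNT rats 312, 287, 242, 200.3 and 203. Both groups spread widely and overlapped, and the lowest 2 rats were TGNT replicates 4 and 5. TGNT against WTNT rats gave a log2 fold change of -0.10 (95% interval -0.36 to 0.16, exact permutation p = 0.476, two-sided). On the treatment side, Nrxn2 was at 483, 457, 429.8 and 416 RPM in the TGNT rats, and at 382 to 470.1 RPM in TGTR rats with a median of 446. The lowest TGTR value was that of replicate 5, and the remaining 5 lay within the TGNT range. Its log2 fold change in TGTR against TGNT rats was -0.02 (95% interval -0.16 to 0.12), and 0.02 without TGTR replicate 5.

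Nrxn3 encodes neurexin-3, which is also presynaptic. It was at 284, 275, 259.8, 298 and 243 RPM in WTNT rats and at 233, 229.7, 262, 271 and 259.5 RPM in TGNT rats. The means were 272 ± 21.2 and 251 ± 18.5 RPM (SD, n = 5 each), so that the TGNT rats tended to the lower part of a shared range. This gave a log2 fold change of -0.11 (95% interval -0.26 to 0.04, exact permutation p = 0.135). Among the treatment rats, Nrxn3 was at 266, 259, 312 and 303 RPM in TGNT rats and at 247 to 304 RPM (median 269) in TGTR rats. Here it had a log2 fold change of -0.07 (95% interval -0.22 to 0.09), and of -0.04 without TGTR replicate 5.

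Nlgn1 encodes neuroligin-1, the family member of excitatory synapses. It was at 129, 145, 150.5, 134 and 172 RPM in WTNT rats and at 152, 135, 173, 153 and 160.0 RPM in TGNT rats. A rat at 172 or 173 RPM was found in each group, and the log2 fold change was 0.09 (95% interval -0.09 to 0.26). With treatment, its RPM were 125, 112, 108 and 114 in TGNT and 94.4 to 119 (median 109) in TGTR rats, with a log2 fold change of -0.09 (95% interval -0.23 to 0.04).

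Nlgn2 encodes neuroligin-2, the family member of inhibitory synapses. Its RPM were 255, 207, 212, 221 and 254 in WTNT rats and 251, 246, 210.2, 184 and 186 in TGNT rats. The lowest values were those of TGNT replicates 4 and 5, which also had the lowest Nrxn2, while TGNT replicates 1 and 2 were close to the highest WTNT rats. Nlgn2 had a log2 fold change of -0.09 (95% interval -0.29 to 0.11, exact permutation p = 0.405). Nlgn2 in the treatment tables was the most even of the neuroligins in the untreated rats, at 359, 355, 347 and 338 RPM. TGTR rats had 298 to 359 RPM with a median of 345, and replicate 5 was again the lowest. Between TGTR and TGNT rats it had a log2 fold change of -0.03 (95% interval -0.15 to 0.09), and 0.0024 without TGTR replicate 5.

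Nlgn3 encodes neuroligin-3, which is found at both excitatory and inhibitory synapses. It was at 196, 166, 158, 159.9 and 206 RPM in WTNT and at 198, 181, 188, 158 and 160.0 RPM in TGNT rats. The means were 177 ± 22.4 and 177 ± 17.4 RPM (SD, n = 5 each). The log2 fold change of 0.00 had a 95% interval of -0.18 to 0.19. Across the treatment rats, Nlgn3 was at 243, 237, 229 and 212 RPM in TGNT rats and at 198 to 233 RPM (median 226) in TGTR rats, a log2 fold change of -0.05 (95% interval -0.17 to 0.08) that was -0.02 without TGTR replicate 5.

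**Figure D2:**
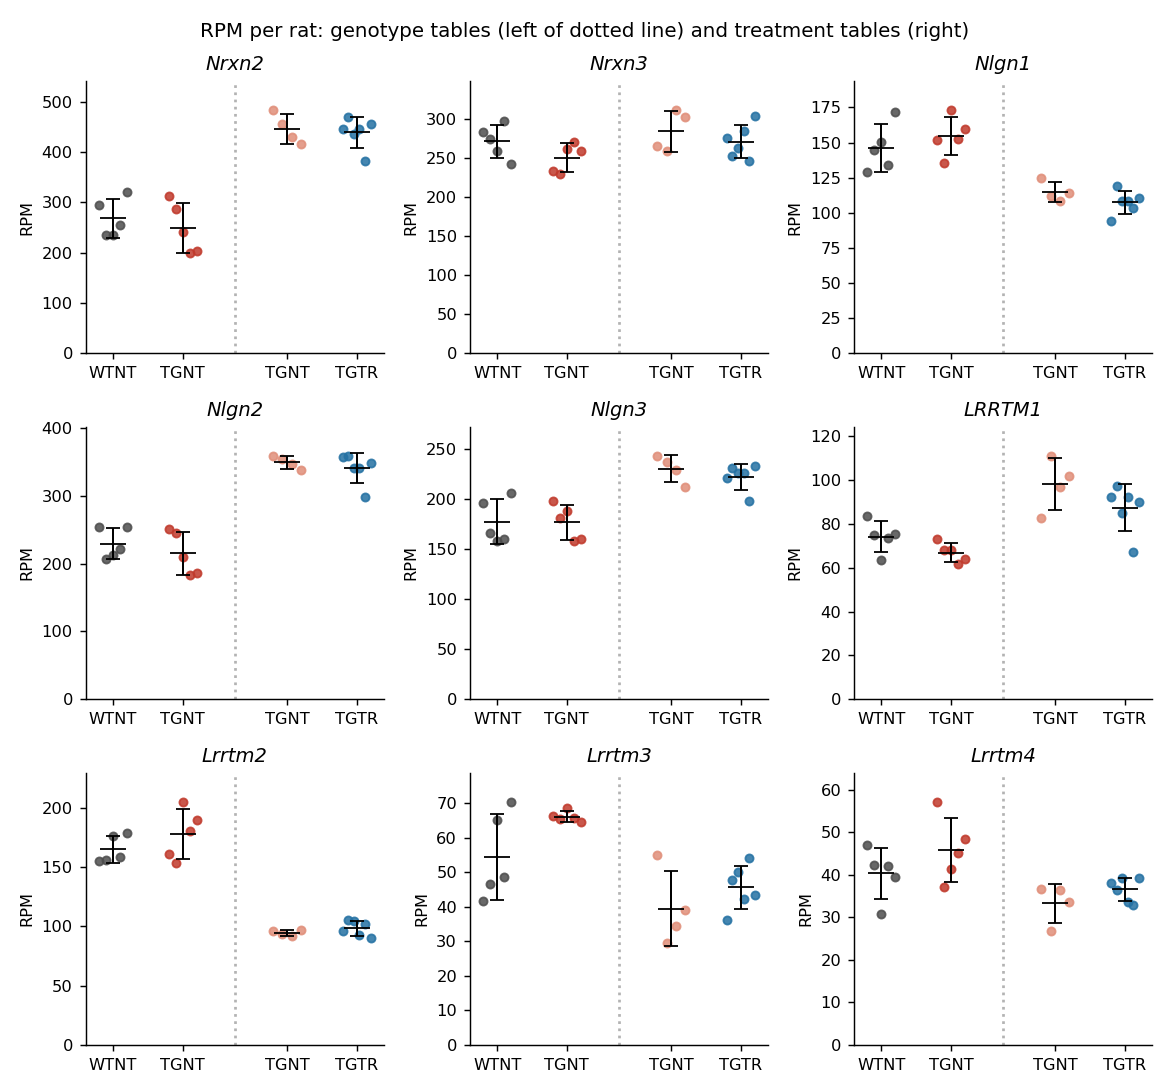
RPM of each member (1 panel each, axis from 0) in every rat, for the genotype tables (WTNT, TGNT) left of the dotted line and the treatment tables (TGNT, TGTR) right of it; points are rats and bars are the mean ± SD. Groups overlap in every panel, and for Lrrtm3 the 5 TGNT rats of the genotype tables lie within 64.5 to 68.6 RPM while the WTNT rats run from 41.8 to 70.4 RPM.

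Among the LRRTM genes, which encode leucine-rich repeat proteins of excitatory postsynapses, LRRTM1 was lower on average in the second group of both comparisons. It was at 83.5, 74.96, 63.5, 73.4 and 75.2 RPM in WTNT rats and at 72.9, 68.2, 68.2, 61.5 and 63.8 RPM in TGNT rats. Of the WTNT rats, 4 exceeded every TGNT rat and replicate 3 lay among them. The log2 fold change was -0.14 (SE 0.0750, 95% interval -0.30 to 0.02, adjusted p = 1 and unadjusted p = 0.0814 by the edgeR quasi-likelihood test). It was -0.20 with an unadjusted p of 0.011 (edgeR) without WTNT replicate 3. LRRTM1 in the treatment tables was at 82.8, 111, 96.9 and 102 RPM in TGNT rats and at 67.0 to 97.2 RPM (median 91.2) in TGTR rats. This is a log2 fold change of -0.16 (95% interval -0.38 to 0.05), and it ranged from -0.24 without TGNT replicate 1 (unadjusted p = 0.0272, edgeR) to -0.10 without TGTR replicate 5.

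Lrrtm2 was at 155, 156, 176, 158 and 179 RPM in WTNT and at 161, 153, 205, 181 and 189.9 RPM in TGNT rats. The highest 3 of these 10 rats were TGNT, and so was the lowest. Its log2 fold change was 0.12 (95% interval -0.06 to 0.29, exact permutation p = 0.230). In the treatment tables it had the smallest coefficient of variation of the members in TGNT rats, 2.69%, where counting alone would give 2.90%. It was at 96.4, 93.6, 91.8 and 97.3 RPM in those rats and at 89.9 to 105 RPM (median 99.2) in TGTR rats. The log2 fold change there was 0.06 (95% interval -0.06 to 0.17).

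Lrrtm3 had the smallest p of the members between genotypes and an unequal spread in the groups. Its RPM were 41.8, 46.5, 65.0, 48.6 and 70.4 in WTNT rats and 66.4, 65.4, 68.6, 65.8 and 64.5 in TGNT rats. WTNT rats formed a lower set of 3 and an upper set of 2 at the level of the TGNT rats, whose 5 values were nearly equal. The coefficient of variation was 22.9% in WTNT and 2.29% in TGNT rats, where counting alone would give 4.73%. The near equality of the TGNT rats was thus closer than counting error gives on average, and is no measure of how little the gene varies. The log2 fold change was 0.29 (SE 0.119, 95% interval 0.03 to 0.54), with an unadjusted p of 0.0292 and an adjusted p of 1 in the edgeR quasi-likelihood test. By p it ranked 307 among the 17168 genes. The exact permutation test of the mean RPM gave p = 0.135, two-sided. The change was 0.20 (unadjusted p = 0.0841, edgeR) without WTNT replicate 1 and 0.39 (unadjusted p = 0.00181, edgeR) without WTNT replicate 5.

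In the treatment tables, Lrrtm3 was at 54.9, 29.6, 34.5 and 39.0 RPM in TGNT rats and at 36.2 to 54.0 RPM (median 45.6) in TGTR rats. The highest rat of all was TGNT replicate 1 and the next was TGTR replicate 5. The log2 fold change was 0.21 (95% interval -0.12 to 0.54, exact permutation p = 0.281). It was 0.16 without TGTR replicate 5, 0.09 without TGNT replicate 2 and 0.41 without TGNT replicate 1 (unadjusted p = 0.00399, adjusted p = 0.340, edgeR). Estimated counts of Lrrtm3 were fractions in all 10 rats of each table, unlike those of every other member, which were whole. RSEM had thus divided some reads between Lrrtm3 and other sequence, and the level of Lrrtm3 is uncertain to that extent.

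Lrrtm4, a member known for its role on dentate gyrus granule cells, was at 47.1, 42.3, 30.8, 42.0 and 39.5 RPM in WTNT rats and at 57.2, 37.2, 41.4, 45.1 and 48.5 RPM in TGNT rats. The log2 fold change was 0.20 (95% interval -0.06 to 0.45, exact permutation p = 0.262), and TGNT replicate 1 held the highest value. Among treatment rats it was at 36.7, 26.8, 36.4 and 33.6 RPM in TGNT rats and at 32.9 to 39.2 RPM (median 37.3) in TGTR rats, with a log2 fold change of 0.13 (95% interval -0.06 to 0.33).

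The exact permutation p of the mean RPM ran from 0.0873 to 0.984 over the members between genotypes and from 0.176 to 0.733 between treatments. The smallest values these group sizes allow are 0.00794 and 0.00476. The members' signs were the same in both comparisons for 7 of 9 genes. Lrrtm2, Lrrtm3 and Lrrtm4 were higher on average in TGNT than WTNT and in TGTR than TGNT rats, and LRRTM1, Nrxn2, Nrxn3 and Nlgn2 were lower. For Nrxn2 and Nlgn2 the sign between treatments turned with scaling by library size only (0.01 and 0.00096), and no member of these sets passed the adjusted test.

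Although the groups did not separate, some members varied together between rats. Each gene's log2(RPM + 1) was taken relative to its group mean, and the 36 pairs of members were correlated over the 10 rats of each table. Differences between groups are thus removed. Beside a correlation, "between genotypes" or "between treatments" names only the tables used. Exact permutation tests shuffled rats within groups, and p-values were adjusted over all 72 relations. Of these, 5 had an adjusted p under 0.05, and 4 of them joined Nrxn2 to Nlgn2 or Nlgn3. How often other gene pairs correlate this strongly was not measured, so the count has no background to set it against. Further pairs rose together without passing the adjusted threshold. LRRTM1 with Nrxn2, Nlgn2 and Nlgn3 had r = 0.72, 0.72 and 0.77 in the genotype tables. Their adjusted p was 0.0875 to 0.0915 (exact permutation test). In the treatment tables r was 0.47, 0.69 and 0.46, and -0.15, 0.25 and -0.23 without the 2 farthest rats. Nlgn1 and Lrrtm3 had r = 0.74 and 0.61 in the genotype and treatment tables.

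Nrxn2 and Nlgn2 moved almost in step in the genotype tables, with r = 0.99 and rho = 0.95 over 10 rats (exact permutation p = 0.000417 for r and 0.00167 for rho, adjusted p = 0.0177 and 0.0300). Without the 2 rats farthest from the median of Nrxn2, r was 0.99. In the treatment tables r was 0.91 and rho 0.85 (exact permutation p = 0.000984 and 0.00382, adjusted p = 0.0177 and 0.0508), r was 0.68 without the 2 farthest rats, and it was 0.81 without TGTR replicate 5.

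Nrxn2 and Nlgn3 had r = 0.89 and rho = 0.87 in the genotype tables (exact permutation p = 0.00333 and 0.00111, adjusted p = 0.0480 and 0.0300) and r = 0.81 without the 2 farthest rats. In the treatment tables these were r = 0.95 and rho = 0.93 (exact permutation p = 0.000810 and 0.00133, adjusted p = 0.0177 and 0.0300), with r = 0.82 without the 2 farthest rats and 0.88 without TGTR replicate 5. The relation was thus seen in both separate sets of rats. Nlgn2 and Nlgn3 had r = 0.85 and rho = 0.75 in the genotype tables (exact permutation p = 0.00667 and 0.0115, adjusted p = 0.0800 and 0.102). In the treatment tables they had r = 0.86 and rho = 0.67 (exact permutation p = 0.00972 and 0.0439, adjusted p = 0.0875 and 0.243). The last r was 0.26 without the 2 farthest rats, and the relation in the treatment tables therefore rested on those rats.

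**Figure D3:**
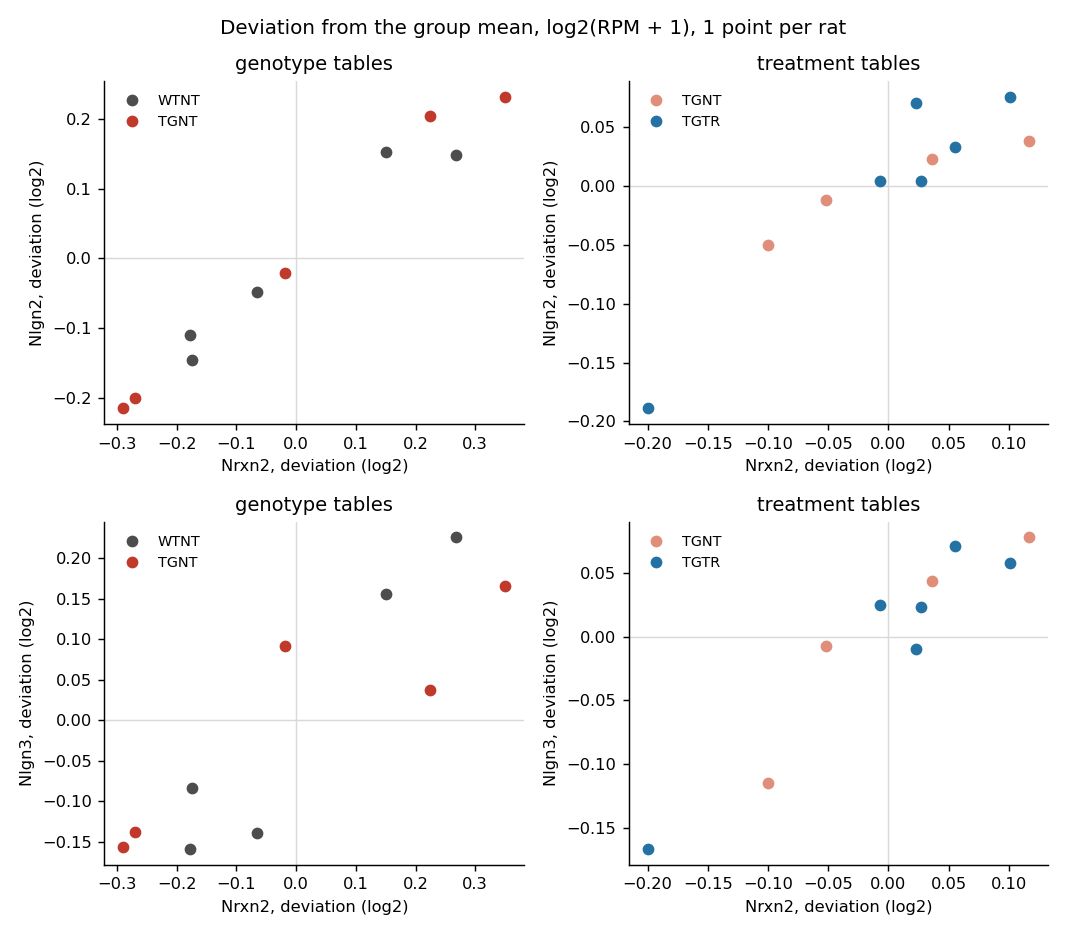
Deviation from the group mean in log2(RPM + 1), 1 point per rat, of Nlgn2 (top) and Nlgn3 (bottom) against Nrxn2, in the genotype tables (left) and the treatment tables (right). Points rise together in all 4 panels (r = 0.99 and 0.91 for Nlgn2, 0.89 and 0.95 for Nlgn3), and the lowest point at right is TGTR replicate 5.

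Depth moved with some of these levels. The correlation of a member's centred level with the log2 library total over the same 10 rats was -0.38, -0.43 and -0.27 for Nrxn2, Nlgn2 and Nlgn3 in the genotype tables, and 0.63, 0.86 and 0.63 in the treatment tables. The sign differed between the tables. TGTR replicate 5, the rat with the high choroid plexus values, had the lowest RPM and estimated counts of these genes in the treatment tables. The correlations with depth were not computed without it. LRRTM1 and Lrrtm3 had correlations with depth of -0.21 and -0.03 in the genotype tables and of 0.77 and -0.56 in the treatment tables. The part of depth in the shared variation was not tested.

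Promoters are shown for Nlgn2 and Nlgn3 because each varied with Nrxn2. RefSeq promoter entries of the GRCr8 build were matched by symbol for 7 of the 9 members, without Nrxn2 and Nrxn3. Each sequence is the 250 bases before the annotated start, on the strand of the gene, and capitals mark the GC box, GGGCGG or its complement CCGCCC. Nlgn2 (chr10:55056579-55056828, minus strand) and Nlgn3 (chrX:70469228-70469477, plus strand) read as follows.
Nlgn2: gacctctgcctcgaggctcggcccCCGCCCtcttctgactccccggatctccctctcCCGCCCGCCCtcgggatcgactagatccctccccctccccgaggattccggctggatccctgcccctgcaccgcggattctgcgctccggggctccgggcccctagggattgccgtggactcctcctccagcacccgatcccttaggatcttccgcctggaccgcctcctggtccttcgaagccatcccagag
Nlgn3: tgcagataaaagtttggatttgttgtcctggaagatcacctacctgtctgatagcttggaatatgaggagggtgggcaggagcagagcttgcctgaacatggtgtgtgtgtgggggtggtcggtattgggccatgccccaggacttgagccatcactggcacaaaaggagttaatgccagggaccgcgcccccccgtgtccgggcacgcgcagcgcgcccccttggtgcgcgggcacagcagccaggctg

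The Nlgn2 promoter was rich in G and C (69.2%) and held 20 CpG dinucleotides, more than 83.3% of the 33469 promoters of that table, whose medians were 51.2% and 5. It held 3 GC boxes, counting overlapping ones, and 30.5% of all promoters held at least 1. The Nlgn3 promoter had 60.0% G and C and 11 CpG, with no GC box in this window. Searches on both strands for TATAAA (12.9% of promoters), CACGTG (5.59%), GCGGGGGCG (2.45%), GCGTGGGCG (0.478%) and the NRF1 site (0.762%) found none in the 7 members. TGACGTCA, the cAMP response element, was found once, in the Lrrtm2 promoter, and in 1.59% of all promoters. Such matches describe the letters only.

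LRRTM1 and Lrrtm3 had negative correlations in both tables. Their r was -0.50 and rho -0.19 between genotypes (exact permutation p = 0.296 and 0.664, adjusted p = 0.666 and 0.857) and r was -0.75 and rho -0.72 between treatments (exact permutation p = 0.0161 and 0.0347, adjusted p = 0.0915 and 0.213). Without the 2 rats farthest in LRRTM1, r was 0.13 and -0.42, so that the relation between genotypes rested on those rats, and neither passed the adjusted test. In the treatment tables the 2 genes' correlations with depth had opposite signs, and the part of depth in this relation was not tested. Their promoters (LRRTM1, chr4:111259609-111259858, and Lrrtm3, chr20:24514054-24514303, both plus strand) each had 44.8% G and C and no GC box in this window, unlike the Nlgn2 promoter.
LRRTM1: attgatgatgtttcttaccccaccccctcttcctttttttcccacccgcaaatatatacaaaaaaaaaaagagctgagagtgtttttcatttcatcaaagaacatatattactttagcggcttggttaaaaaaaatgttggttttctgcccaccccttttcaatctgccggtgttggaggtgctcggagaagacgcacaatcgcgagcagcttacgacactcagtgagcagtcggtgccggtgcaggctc
Lrrtm3: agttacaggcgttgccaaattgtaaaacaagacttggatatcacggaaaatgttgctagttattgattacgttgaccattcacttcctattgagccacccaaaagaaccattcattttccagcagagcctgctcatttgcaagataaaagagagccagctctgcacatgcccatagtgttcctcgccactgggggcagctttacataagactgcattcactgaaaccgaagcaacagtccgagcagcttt

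The last relation under the adjusted threshold joined Nlgn1 to Lrrtm2, both of excitatory synapses. It had r = 0.84 and rho = 0.90 in the genotype tables (exact permutation p = 0.000625 and 0.00160, adjusted p = 0.0177 and 0.0300), and r = 0.78 without the 2 farthest rats. The same pair had r = 0.30 and rho = 0.28 between treatments (exact permutation p = 0.493 and 0.468, adjusted p = 0.806 and 0.857). Whether the correlation differed between the tables was not tested.

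Members were set against the 12 marker lists in the same way, which gave 216 relations and 0 with an adjusted p under 0.05 for r. In the genotype tables Nrxn2, Nlgn2 and Nlgn3 had negative correlations with the oligodendrocyte list. Nlgn3 had r = -0.89 and rho = -0.85 (exact permutation p = 0.000486 and 0.00743, adjusted p = 0.0525 and 0.201), and r was -0.82 without the 2 farthest rats. Nrxn2 had r = -0.78 and Nlgn2 -0.69 (adjusted p = 0.220 and 0.290 in the exact permutation test), which were -0.54 and -0.50 without the 2 farthest rats. In the treatment tables the r of Nlgn3, Nrxn2 and Nlgn2 with this list were 0.07, -0.03 and 0.24, and the difference between the tables was not tested. With the neuron list, Nrxn2, Nlgn2 and Nlgn3 had r = 0.61, 0.53 and 0.71 in the genotype tables. In the treatment tables these were 0.38, 0.52 and 0.53. With the endothelium list they were 0.68, 0.65 and 0.74 in the genotype tables and -0.12, -0.34 and -0.07 in the treatment tables. The lowest adjusted p of these r was 0.290 (exact permutation test). Without the 2 farthest rats, the neuron r in the treatment tables were -0.50, -0.32 and -0.24. The part of any of these lists in the correlations of these 3 genes was not tested. Nlgn1 and the interneuron list between treatments had r = 0.85 and rho = 0.89 (exact permutation p = 0.000868 and 0.00214, adjusted p = 0.0625 and 0.175), and r was 0.53 between genotypes.

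Lrrtm3 had negative correlations with the CA3 pyramidal cell list (Bok, Iyd, Grik4 and Socs2) in both tables. Between genotypes r was -0.81 and rho -0.87 (exact permutation p = 0.0441 and 0.0254, adjusted p = 0.310 and 0.313), and between treatments r was -0.86 and rho -0.87 (exact permutation p = 0.00266 and 0.00434, adjusted p = 0.115 and 0.188). Without the 2 farthest rats r was -0.69 in each. The list itself overlapped between the groups, at 3.13 to 3.64 in WTNT and 3.28 to 3.48 in TGNT rats as a mean log2(RPM + 1), and at 3.52 to 3.98 in TGNT and 3.37 to 3.82 in TGTR rats of the treatment tables. The TGNT and TGTR rats with the highest Lrrtm3 of their groups in the treatment tables, TGNT replicate 1 and TGTR replicate 5, had the lowest CA3 list of their groups, at 3.52 and 3.37. In the genotype tables the lowest list value, 3.13, was that of WTNT replicate 3, one of the 2 WTNT rats with a high Lrrtm3. The CA3 list was not the only one with the same sign in both tables. For Lrrtm3, r was 0.86 and 0.74 with the interneuron list, -0.80 and -0.70 with the dentate gyrus granule cell list and -0.75 and -0.70 with the astrocyte list, between genotypes and between treatments. The part of regional makeup in the level of Lrrtm3 was not tested.

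Lrrtm4 followed the dentate gyrus granule cell list (Prox1, Trpc6, Tdo2 and Lct) in the genotype tables, with r = 0.88 and rho = 0.92 (exact permutation p = 0.000347 and 0.000208, adjusted p = 0.0525 and 0.0450) and r = 0.74 without the 2 farthest rats. Between treatments r was 0.19 and rho 0.19 (exact permutation p = 0.609 and 0.581, adjusted p = 0.828 and 0.806), and r was -0.05 without TGTR replicate 5. The difference between the tables was not tested. WTNT replicate 3 was lowest in both the gene (30.8 RPM) and the list (2.89), and WTNT replicate 1 and TGNT replicate 1 led their groups in both. The dentate list was not the only one that moved with Lrrtm4. Its r was -0.77 with the interneuron list and -0.79 with the thalamus list between genotypes, and 0.18 and -0.41 between treatments. Nor was Lrrtm4 the only member that rose with the dentate list, as LRRTM1 had r = 0.74 and 0.61 in the 2 comparisons.

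**Figure D4:**
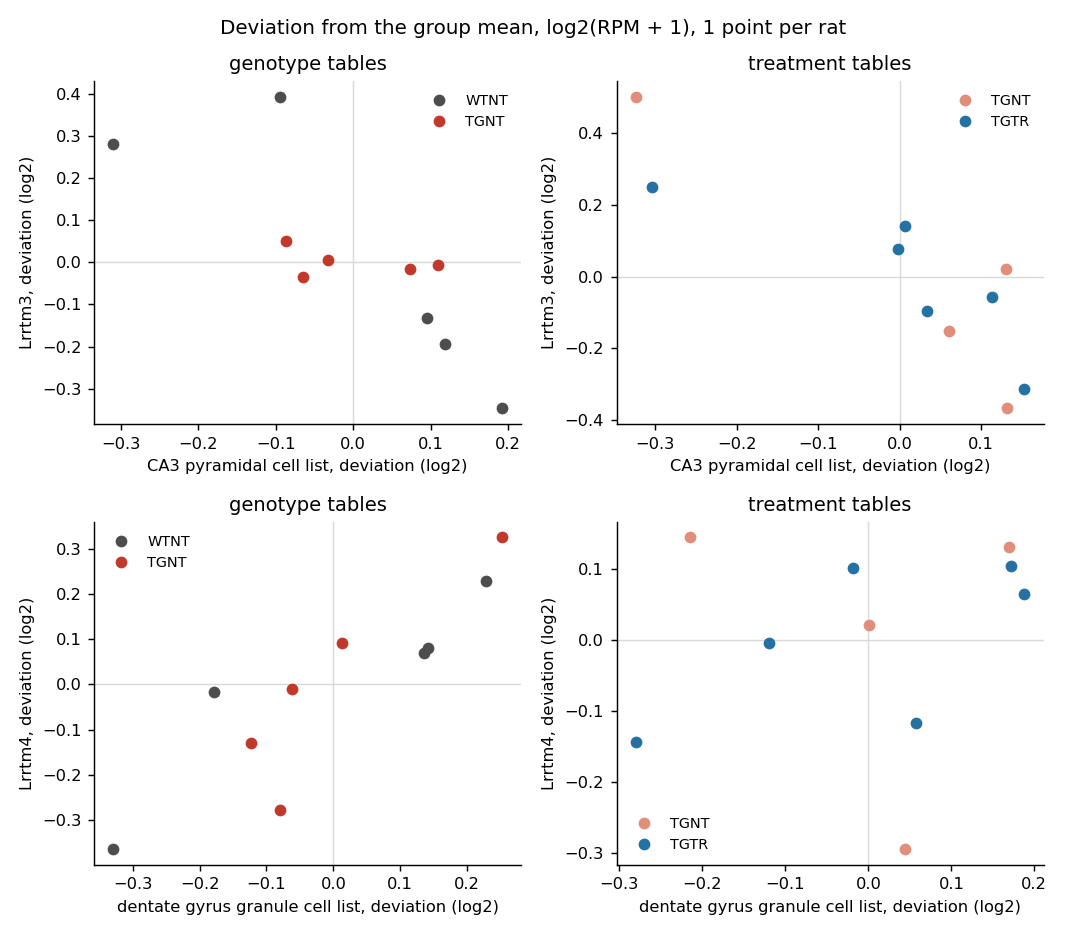
Deviation from the group mean in log2(RPM + 1), 1 point per rat, of Lrrtm3 against the CA3 pyramidal cell list (top) and of Lrrtm4 against the dentate gyrus granule cell list (bottom), in the genotype tables (left) and the treatment tables (right). Lrrtm3 falls along the CA3 list at left and right (r = -0.81 and -0.86), and Lrrtm4 has r = 0.88 and 0.19 with the dentate list, a difference between the tables that was not tested.

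All 12 marker lists overlapped between the groups in both comparisons. The microglia list was 0.08 higher in TGNT than in WTNT rats on the mean log2(RPM + 1) scale (4.42 to 4.55 against 4.37 to 4.46, exact permutation p = 0.0397, unadjusted over the lists). The neuron list, which is the most relevant to genes of synapses, ran from 9.38 to 9.53 in WTNT and 9.33 to 9.47 in TGNT rats, and from 9.32 to 9.43 in TGNT and 9.26 to 9.47 in TGTR rats.

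Some members overlap another gene. In the reference gene table LRRTM1 overlaps Ctnna2, Lrrtm2 overlaps Ctnna1 and Lrrtm3 overlaps Ctnna3, all of which encode alpha-catenins of adherens junctions, and Nrxn2, Nlgn2 and Nlgn3 overlap no other gene. Nrxn3, Nlgn1 and Lrrtm4 overlap 3, 3 and 1 further annotated genes. Reads from sequence that both genes of a pair share cannot be told apart unless the counting used strand, which is not given in the sources used here. The estimated counts of LRRTM1 and Lrrtm2 were whole in every rat, whereas those of Lrrtm3 were fractions. Sharing of reads with the catenins was not tested. Ctnna2 had a log2 fold change of -0.00 between genotypes and 0.04 between treatments. Ctnna1 had 0.03 between genotypes and 0.13 between treatments (unadjusted p = 0.0162, adjusted p = 0.964, edgeR), beside 0.12 and 0.06 for Lrrtm2. Ctnna3 was not analysed here.

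The partners of the family were described from 6 lists with 67 genes, of which 65 were found. They cover the scaffold under neurexins, ligands in the cleft, other membrane proteins that bind neurexins, regulators and scaffold of neuroligins, further synaptic organizers and the catenin hosts. The quasi-likelihood test called 0 of 65 in either comparison, against 0.0116% and 0% of all genes. Without adjustment, 1 of 65 (1.54%) had a p under 0.05 between genotypes, against 3.23% of all genes, and 9 of 65 (13.8%) had one between treatments, against 4.91%. The lists were chosen with earlier results of these data known, so these shares are no test of the lists. Neither count was stable. Between genotypes it was 12 without WTNT replicate 3, 5 without WTNT replicate 5, 3 without TGNT replicate 2 and 2 without TGNT replicate 4. Between treatments it was 2 with the replicate block, 4 without TGNT replicate 3 and 15 without TGNT replicate 1. The median log2 fold change over the 65 was -0.00 in both comparisons.

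Between genotypes the 1 gene was Iqsec3, which encodes a protein that binds gephyrin at inhibitory postsynapses. It was the only one of these partners whose groups did not overlap between genotypes. Its RPM were 337.1 to 385 in WTNT and 306 to 336.6 in TGNT rats. Groups did not overlap for 0.652% of all genes with 10 or more counts on average. The log2 fold change of Iqsec3 was -0.16 (unadjusted p = 0.0151, adjusted p = 1, edgeR). The exact permutation p of 0.00794 is the smallest these groups allow, and any gene without overlap has it. The estimated counts of Iqsec3 were fractions in all 10 rats of each table, as were those of Elfn1, and those of Ctnna1 and Ctnna2 were in 5 of 10, so their levels carry the same kind of uncertainty as that of Lrrtm3.

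Between treatments, TGTR rats had the higher level in 8 of the 9 genes, with adjusted p of 0.957 or more in every case. Over all genes, 2.98% were higher and 1.93% lower at the same unadjusted p. Nxph3 encodes neurexophilin-3, a secreted ligand of neurexins, and had a log2 fold change of 1.62 (unadjusted p = 0.00586, edgeR; exact permutation p = 0.00952). TGNT rats ranged from 1.43 to 15.2 RPM and TGTR rats from 11.9 to 22.0 RPM, with 5 of 6 TGTR rats above every TGNT rat. WTNT rats of the genotype tables ranged from 0.994 to 24.6 RPM, so that the spread of Nxph3 within untreated groups was wide.

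Cbln2, which encodes a cerebellin, a secreted ligand of neurexins, ranged from 7.71 to 19.5 RPM among TGNT and from 13.7 to 25.7 RPM among TGTR rats, a log2 fold change of 0.71. Igsf21, a neurexin-binding protein of inhibitory synapses, had a log2 fold change of 0.38, and Lphn2 (latrophilin-2, an adhesion receptor) 0.42. Smaller log2 fold changes were found for Il1rapl1, a ligand of presynaptic receptor phosphatases (0.29), Lrrc4c, a netrin-G ligand (0.22), Elfn1, which binds presynaptic glutamate receptors (0.20), and Ctnna1 (0.13). Iqsec3 was the 1 gene lower in TGTR rats, with a log2 fold change of -0.16 and overlapping groups of 482 to 546 and 382 to 487 RPM. The thalamus list, markers of an adjoining tissue, overlapped between these groups at 3.17 to 3.39 in TGNT and 3.21 to 3.64 in TGTR rats, and its part in the partners' values was not tested. Without TGTR replicate 5 the count of 9 was 8, a smaller move than those without TGNT rats.

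**Figure D5:**
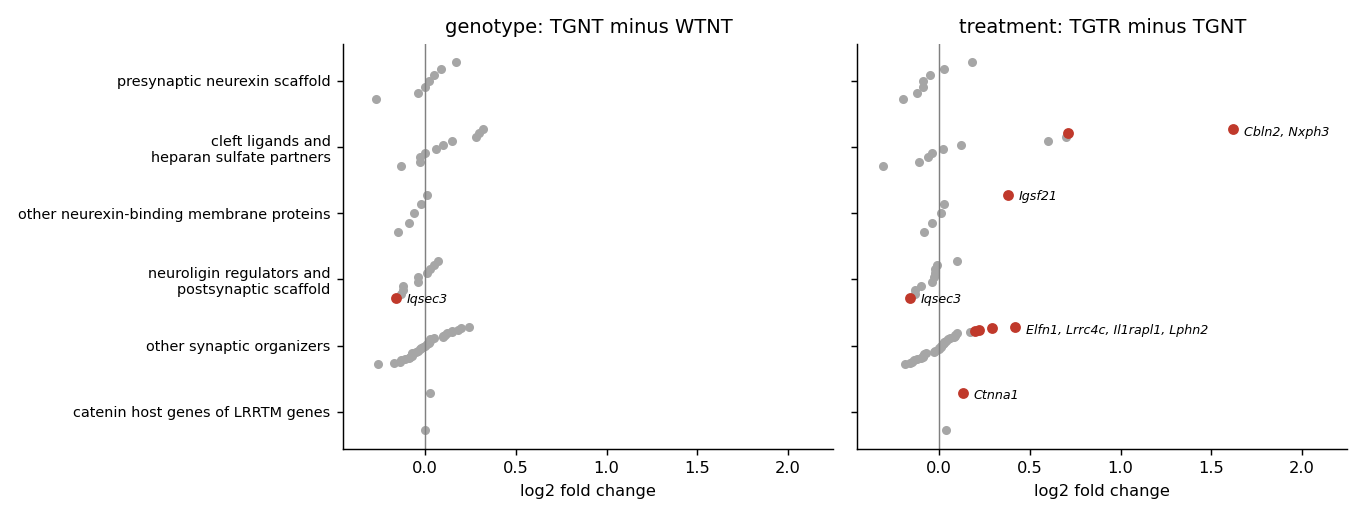
Fitted log2 fold changes of the 65 partner genes by list, TGNT minus WTNT on the left and TGTR minus TGNT on the right; red, named points have an unadjusted p under 0.05 and the remaining points are grey. Most points lie near 0, with 1 red point at left and 9 at right, of which Nxph3 (1.62) lies farthest out.

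The partner with the highest mean RPM in each list showed little difference. Dlg4, the postsynaptic scaffold that holds neuroligins, had log2 fold changes of -0.12 and -0.04 in the genotype and treatment comparisons, and Clstn1, a calsyntenin, -0.07 and 0.05. Lphn1, the latrophilin that binds neurexins and teneurins, had -0.15 and -0.04. For the scaffold under neurexins the highest were Apba2, an adaptor, between genotypes (log2 fold change 0.09) and Caskin1, a binder of the CASK scaffold, between treatments (-0.09). For the cleft ligands they were Gpc4, a heparan sulfate proteoglycan, between genotypes (-0.13) and C1ql3, a secreted complement-like protein, between treatments (0.12).

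Genes outside the family were ranked by how closely they followed the mean profile of the members, in standardized deviations from the group means over 10 rats. Among 11347 genes of the genotype tables the nearest included Ntng2 (r = 0.97) and Dcaf7 (r = 0.97), and among 12020 genes of the treatment tables the nearest were Rtn1 (r = 0.98), Papd7 (r = 0.94) and Baalc (r = 0.94). Each was less close in the other table, at 0.75 for Ntng2 and 0.22 for Dcaf7, and at 0.14, 0.70 and 0.27 for the last 3. Ntng2 encodes netrin-G2, a presynaptic adhesion protein. These were selected as the highest of many correlations and carry no test.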

How the data were processed

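Hippocampal RNA of 20 female rats was sequenced as stranded poly(A) libraries. Per the submitters' processing notes, bcl2fastq 2.17, Bowtie2 2.1.0, RSEM 1.2.15 and edgeR were used with build rn6. The annotation and the strand setting are not given in the sources used here. For each comparison the authors deposited estimated counts per gene, which RSEM makes by dividing shared reads and which were not normalized. The authors also deposited a signal in RPM, scaled by TMM within each table. 0 columns lacked a sample.

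Estimated counts were rounded and fitted with edgeR 4.0.16 (R 4.3.3) in each table by itself, with TMM normalization. The quasi-likelihood test covered all 17168 genes, without a filter on low counts. Tests were two-sided, with Benjamini-Hochberg adjustment over all genes. Genes with an adjusted p under 0.05 and at least 1.5-fold were called. RPM of single genes were compared with exact two-sided permutation tests, and correlations with exact permutations of rats within groups. Medians, overlaps and the ranking of genes used those with a mean of at least 10 counts. Marker levels and correlations used log2(RPM + 1).

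Alternatives were other scalings (RLE size factors, library size only), filters (filterByExpr, at least 10 counts in every rat), the likelihood ratio test, DESeq2 1.42.0, limma-trend (limma 3.58.1) on log2 RPM with 1 or 0.1 added, a replicate block, and leaving out each rat. Leaving out each rat for the correlations was chosen after the data were seen. The fits were also run on simulated data with known changes, and the outcome is not given here. Nothing states how rats were selected beyond their group, so p-values set differences against the spread between these rats only.

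The members, partner lists and marker lists were chosen with earlier results of these data known. Named partners are those with an unadjusted p under 0.05 in either comparison, the gene with the highest mean RPM of each list, and the catenin hosts. Of 67 partner genes, 3 were matched by a synonym (Lphn1, Lphn2 and Lphn3) and 2 had no row used here. Of 57 marker genes, 55 were matched. The 3 genes nearest to the members' mean profile in each comparison were named, except that 1 of them is not reported here. Likewise 1 further listed partner was left out of the lists and counts. Promoters came from RefSeq (GRCr8), and that gene table was used for overlapping genes, not for coordinates of the rn6 counts.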

Additional observations from a re-analysis of the deposited data

Results flagged for a closer look

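Single rats that lay far from the rest of their group, by Dixon's test, were found in 5 of the 84 groups of values tested (members and marker lists), where chance alone flags about 1 in 20. TGTR replicate 5 had the lowest Nlgn2 of its group, 298 RPM with the next rat at 341 RPM, and the lowest Nlgn3, 198 RPM with the next rat at 220.4 RPM. The same rat had the lowest CA3 pyramidal cell list of the TGTR rats, 3.37 as a mean log2(RPM + 1) with the next rat at 3.67. TGNT replicate 1 of the treatment tables had the lowest CA3 list of its group, 3.52 with the next rat at 3.91. TGNT replicate 2 of the treatment tables had the lowest choroid plexus list of its group, 1.06 with the next rat at 1.36.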

How the results depend on the processing

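Every alternative called 0 members and 0 partner genes in both comparisons. The sign of changes near 0 turned for 3 members. Nlgn3 between genotypes was -0.01 with RLE size factors and with DESeq2, -0.0036 with filterByExpr, -0.0017 with at least 10 counts in every rat, and -0.05 to 0.06 when each rat was left out. Between treatments, Nrxn2 was 0.01 with library size only and with the replicate block and -0.06 to 0.02 when each rat was left out, and Nlgn2 was 0.00096 with library size only, 0.0026 with the replicate block, and -0.05 to 0.0024 when each rat was left out. The correlation of Lrrtm4 with the dentate gyrus list between treatments was -0.05 without TGTR replicate 5 and ran up to 0.49 when other rats were left out. The count of members with an unadjusted p under 0.05 was 0 with either limma-trend fit (1 or 0.1 added to RPM), 0 to 2 between genotypes when each rat was left out, and 0 to 2 between treatments. That of partner genes between genotypes was 2 with library size only, either limma-trend fit or the replicate block. It was 2 with the replicate block between treatments, 1 to 12 between genotypes (12 without WTNT replicate 3, 5 without WTNT replicate 5, 3 without TGNT replicate 2, 2 without TGNT replicate 4) and 4 to 15 between treatments (4 without TGNT replicate 3, 15 without TGNT replicate 1) when each rat was left out. The cause was not tested. Rats with the same number did not consistently deviate together (r of -0.21 to 0.34 between genotypes and -0.576 to 0.142 between treatments). Between genotypes the closest rat of the other group had the same number for replicates 1 and 3 only, and between treatments for none. The numbers were not taken to pair rats. The other 325 refitted changes of the members kept their sign and stayed uncalled. The rule used calls no change under 1.5-fold, whatever the number of rats. Groups held 4 to 6 rats, and depth limited the members less than the spread between rats.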
